A study of Homo sapiens with 18 samples.

Results

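Clone 1KI9 is a HUDEP1 line that expresses GATA1s, and its poly(A) RNA at day 4 of differentiation was set against the same clone kept in expansion. HUDEP1 is an immortalised human erythroid progenitor line. The comparison rests on 6 of the 18 libraries of the series, 3 from day 4 and 3 from expansion, picked by their clone and condition labels. The other 12 libraries, from GATA1s clone 1D5 and from clone FL with full-length GATA1, are used only to show where the change in 1KI9 differed. All groups received erythropoietin (EPO, 3 U/mL), SCF (50 ng/mL) and doxycycline (1 µg/mL). For day 4 these were added to IMDM together with human AB serum at 3%, FBS at 2%, insulin at 10 µg/mL, holo-transferrin at 1 mg/mL and heparin at 3 U/mL. For expansion they were added to SFEM II together with dexamethasone at 1 µM, which is listed for that condition only. 1KI9 is 1 clone, and nothing says that its replicates were separate cultures. Each SE and p-value rests on the spread between libraries pooled over all 6 groups of the 3 clones, and that spread may be technical. Medium, time in culture and the separate scaling of the conditions in the deposited table cannot be told apart from differentiation.

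GATA1 is the transcription factor that switches on globin, heme synthesis and membrane genes in maturing red cells. GATA1s is a shorter form without the N terminus of the full protein, and it is known from the transient myeloid disease and leukaemia of Down syndrome and from inherited anaemias. As normal erythroid precursors mature they fill with hemoglobin, stop dividing, condense the nucleus and clear mitochondria and ribosomes.

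All levels below are the authors' TPM-like values after median-of-ratios scaling over the 18 libraries, called scaled values. They are per length of transcript, so levels of different genes can be set side by side. A change is the difference of mean log2(scaled value + 1), day 4 minus expansion, with its SE, and a gene rose or fell when the adjusted p of limma was under 0.05. Genes were tested if they stood at 1 or more in at least 3 libraries and were not listed at 0 throughout one of the conditions, which left out 25 otherwise eligible genes at 0 in every day-4 library and 78 at 0 in every expansion library of the series. Of 11014 genes tested, 8046 (73.1%) changed, 4141 of them (37.6%) higher and 3905 (35.5%) lower at day 4. Changes of at least 2-fold were seen for 795 higher (7.22%) and 653 lower genes (5.93%), and the median change over all genes was 0.02. The sample values of the groups did not overlap for 8628 genes (78.3%). The change in 1KI9 differed from that in FL for 61.4% of all genes tested and from that in 1D5 for 26.8%, in either direction. Counts of such differences in the lists below are to be read beside these shares. With the deposited values left unscaled the split moved to 2445 higher and 5749 lower, and with every library brought to a sum of 1000000 to 3248 higher and 4586 lower, so changes near 0 depend on the scaling. Libraries of one condition correlated at 0.9958 to 0.9980 and libraries of different conditions at 0.9276 to 0.9408. Among the expansion libraries, replicate 1 held the highest of the 3 values for 525 of the 795 genes that rose 2-fold and the lowest for 404 of the 653 that fell 2-fold. Without that library 872 genes rose and 684 fell 2-fold. Among the day-4 libraries, replicate 3 held the lowest value for 472 of the 795, and without it 820 genes rose and 667 fell 2-fold.

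GATA1 itself (ENSG00000102145.14, chrX:48786554-48794311, hg38) was at 940.2, 959.7 and 894 at day 4, against 519, 516 and 523 in expansion, with no overlap between the conditions. Its change was 0.84 ± 0.06 (adjusted p = 1.16e-09), close to the 0.87 of 1D5, and 1.05 in FL. A gene total does not separate the long and the short form, so it does not check the genotype label.

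**Figure D1:**
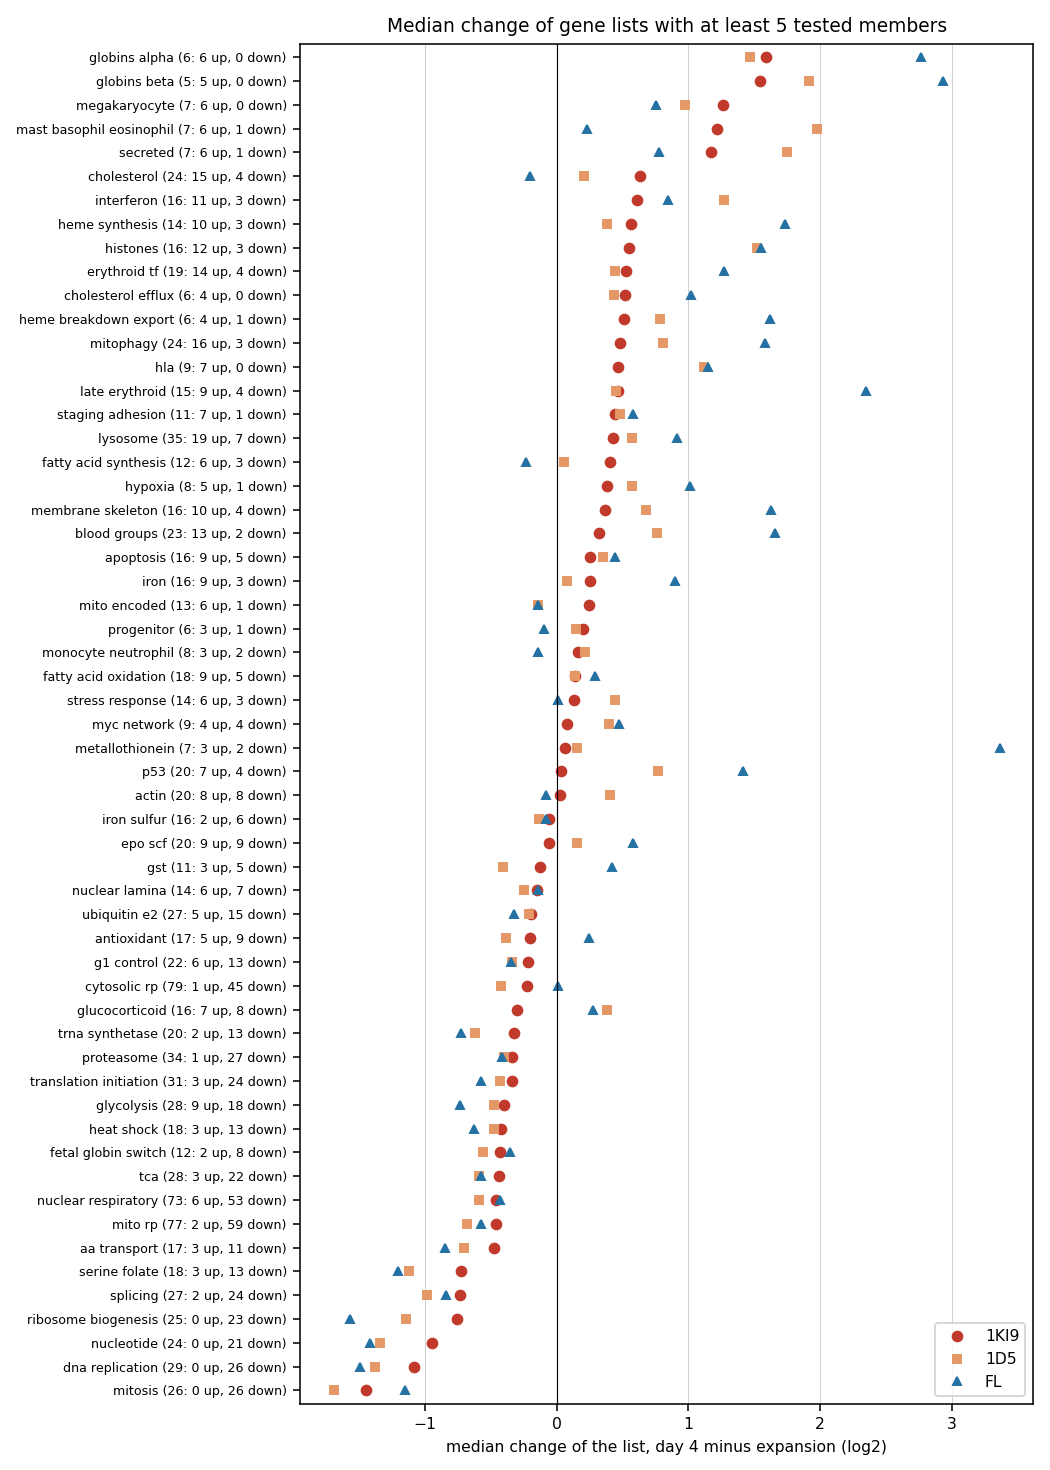
Median change of each gene list with at least 5 tested members, day 4 minus expansion (log2), in 1KI9 (circles), 1D5 (squares) and FL (triangles), with the number of tested members and how many rose or fell in 1KI9 beside each name. Mitosis, DNA replication and ribosome biogenesis lists lie left of 0 in all 3 clones, and the erythroid lists lie right of 0 with the 1KI9 point left of the FL point.

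Globin RNA rose in every library of day 4, and the embryonic epsilon chain moved most. HBE1 (chr11:5268345-5505652) was at 13434, 13718 and 12438 at day 4, against 334, 225 and 203 in expansion, so the lowest day-4 library stood far above the highest expansion library. Its change was 5.73 ± 0.38 (adjusted p = 3.97e-10). HBZ, the embryonic zeta chain, was at 314, 334 and 276 at day 4, against 26.9, 27.4 and 28.2 in expansion (change 3.44 ± 0.36). HBZ changed more in 1KI9 than in 1D5, where it averaged 217 ± 22.9 at day 4 and 116 ± 76.3 in expansion (difference of changes 2.33 ± 0.51, adjusted p = 0.00298), and without 1D5 expansion replicate 3, the highest of its group, the difference was 1.83 (adjusted p = 0.00424 in limma). The fetal gamma chains dominated the pool in both conditions.

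HBG2 was at 53360, 55674 and 48323 at day 4, against 20412, 16705 and 16924 in expansion (change 1.55 ± 0.25). HBG1, HBG2 and the gene model AC104389.5 that spans them are near-identical, so their split is uncertain, and their sum took 8.55 ± 0.23% of the library total at day 4 and 3.19 ± 0.27% in expansion (SD, n = 3 each). HBA1 and HBA2, also near-identical, rose by 1.47 and 1.70, and together took 2.73 ± 0.21% and 0.994 ± 0.043%. The adult beta chain gene HBB reached only 17.0, 15.1 and 13.9 at day 4, against 2.72, 1.82 and 3.41 in expansion. Over the alpha and beta clusters with the alpha-globin chaperone AHSP, 11 of 11 tested members rose, with medians of 1.59 and 1.55.

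All globins together made up 13.3%, 13.0% and 12.4% of the day-4 libraries, against 4.54%, 4.02% and 4.12% of the expansion libraries. In bulk RNA, more cells of a type and more RNA per cell cannot be told apart. The groups did not overlap, and the exact two-sided permutation test gave p = 0.1, the smallest it can give with 3 against 3. In 1D5 the share was 19.8 ± 0.67% at day 4 and 5.30 ± 1.33% in expansion, and in FL 38.8 ± 0.59% and 7.30 ± 2.88%. The rise was smaller in 1KI9 than in FL for 5 of 6 alpha-cluster and 4 of 5 beta-cluster genes (61.4% of all genes tested differed from FL), HBE1 and HBZ being the ones that did not pass. Against 1D5, where 26.8% of all genes tested differed, the 1 globin gene that passed was HBZ.

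**Figure D2:**
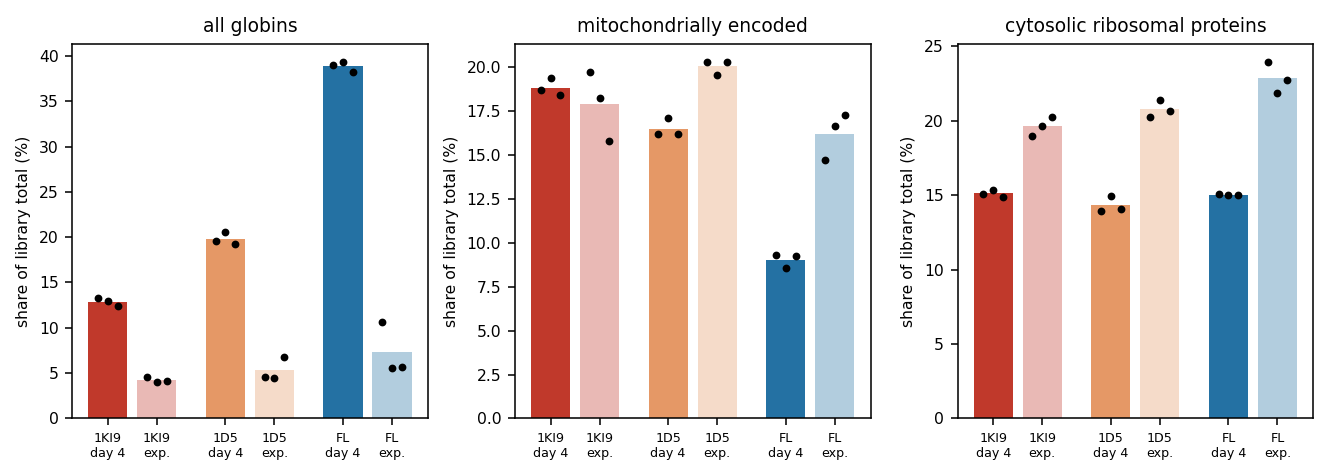
Share of each library's total (percent) taken by all globins, mitochondrially encoded genes and cytosolic ribosomal proteins, for day 4 left of expansion in 1KI9, 1D5 and FL. Points are libraries and bars are means of 3. Globins took 12.9% at day 4 and 4.23% in expansion of 1KI9, below the day-4 share of 1D5 and of FL.

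Most heme synthesis genes rose, and a few fell. Of 14 members 10 rose and 3 fell, with a median of 0.56. ALAS2, the erythroid enzyme that starts the pathway, was at 358, 370.3 and 349.9 at day 4, against 161, 108 and 123 in expansion (change 1.47 ± 0.29). The mitochondrial carrier SLC25A39 rose by 1.10, PPOX by 1.02 and FECH, which inserts the iron, by 0.63.

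ALAD, the second enzyme, went the other way, at 16.8, 16.9 and 15.5 at day 4, against 40.6, 34.8 and 40.0 in expansion. Every day-4 library lay under every expansion library, and the change was -1.18 ± 0.10 (adjusted p = 1.32e-08). The mitochondrial transporter ABCB10 fell by 0.97 on the log2 scale and CPOX, the coproporphyrinogen oxidase, by 0.47. In FL the same 3 genes rose, by 1.76, 0.52 and 0.94, whereas in 1D5 they stood at -1.30, -1.44 and -0.67. The change of each of the 14 heme genes was lower in 1KI9 than in FL, with a median of 1.73 in FL, and 1 of 14 differed from 1D5. ALAS2 is shown because it is the enzyme particular to red cells, as the 250 bases before its RefSeq start (GRCh38.p14, chrX:55030978-55031227, minus strand), with the match to a GATA motif in capitals.
ALAS2: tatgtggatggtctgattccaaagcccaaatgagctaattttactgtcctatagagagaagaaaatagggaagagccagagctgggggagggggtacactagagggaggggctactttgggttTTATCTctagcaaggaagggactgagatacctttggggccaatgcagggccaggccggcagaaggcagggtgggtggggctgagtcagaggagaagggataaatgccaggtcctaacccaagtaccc
The GATA motif was searched as GATAA or GATAG with A or T before it, on both strands, and such a match stood in 2 of 12 heme gene windows, against 12.8% of the windows of tested genes and 22.9% of all 27305 RefSeq windows.

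Among iron genes 9 of 16 rose and 3 fell, with a median of 0.25 that turned to -0.04 in the unscaled values. The ferritin subunits FTH1 and FTL, which store iron, rose by 1.06 and 0.69, although FTL turned to -0.25 when values were ranked within libraries. NCOA4, the receptor that delivers ferritin to lysosomes, was at 282, 288 and 295 at day 4, against 137, 119 and 121 in expansion (change 1.19 ± 0.08). SLC25A37, which brings iron into mitochondria, rose by 1.61. TFRC, the transferrin receptor, was at 302, 297 and 339 at day 4, against 216, 258 and 277 in expansion, a change of 0.32 against 1.86 in FL. The call for TFRC was lost without day-4 replicate 3 (0.27) or expansion replicate 1 (0.22), and its change was 0.03 in the unscaled values. The endosomal iron reductase STEAP3 fell by 0.87. HMOX1, which breaks heme down, rose by 2.22, while its constitutive relative HMOX2 fell by 1.27.

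The membrane proteins of the red cell split into a few large increases and many members near their expansion level. SLC4A1, the band 3 anion exchanger (chr17:44248385-44268141), was at 213, 214 and 215 at day 4, against 12.94, 10.99 and 9.952 in expansion, without overlap, and rose by 4.14 ± 0.40 (adjusted p = 4.39e-08). Among 16 skeleton and band 3 genes 10 rose and 4 fell (median 0.36), or 7 and 6 in the unscaled values. DMTN, an actin bundler, rose by 2.33 and TMOD1, which caps actin, by 1.19. ANK1, the ankyrin that holds band 3 to the skeleton, rose by 1.05. SPTB, the spectrin beta chain, did not pass (0.02). Of 23 blood group and surface genes 13 rose and 2 fell (median 0.33), or 11 and 5 in the unscaled values (median 0.03).

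Among the surface proteins GYPB (0.22) and KEL (-0.20) did not pass, while GYPC rose by 0.60. BSG, the basigin that carries the Ok antigen, rose by 1.22, the complement shield CD59 by 1.36, SEMA7A by 1.70 and the urea transporter SLC14A1 by 2.09. RHD and RHCE, like GYPB and GYPE, are close copies of each other, so their levels are uncertain. The change was lower in 1KI9 than in FL for 15 of 16 skeleton genes and 20 of 23 surface genes, where the FL medians were 1.63 and 1.66.

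Late maturation genes were uneven, 9 of 15 rising and 4 falling (median 0.46, and 2.35 in FL). The unscaled values gave 7 higher and 5 lower. BPGM, which makes 2,3-bisphosphoglycerate, was at 41.2, 41.6 and 39.7 at day 4, against 10.4, 9.07 and 8.42 in expansion (change 2.03 ± 0.12), and the glycine transporter SLC6A9 rose by 2.08. CA2, a carbonic anhydrase of red cells, was at 86.4, 94.2 and 87.2 at day 4, against 212, 241 and 238 in expansion, a change of -1.36 without overlap. SELENBP1, a selenium-binding protein of mature red cells, stayed at 2.19, 2.65 and 2.60, against 2.30, 1.68 and 2.26 in expansion (0.18, not passed), while in FL it averaged 307 ± 13.2 at day 4 and 10.3 ± 4.80 in expansion. Of the 15 genes 14 had a lower change in 1KI9 than in FL. Among 11 adhesion and staging genes 7 rose and 1 fell, that 1 being ITGA4, the integrin alpha 4 chain lost from maturing red cells, at 74.3, 70.5 and 80.5 at day 4, against 168, 179 and 187 in expansion (-1.24).

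**Figure D3:**
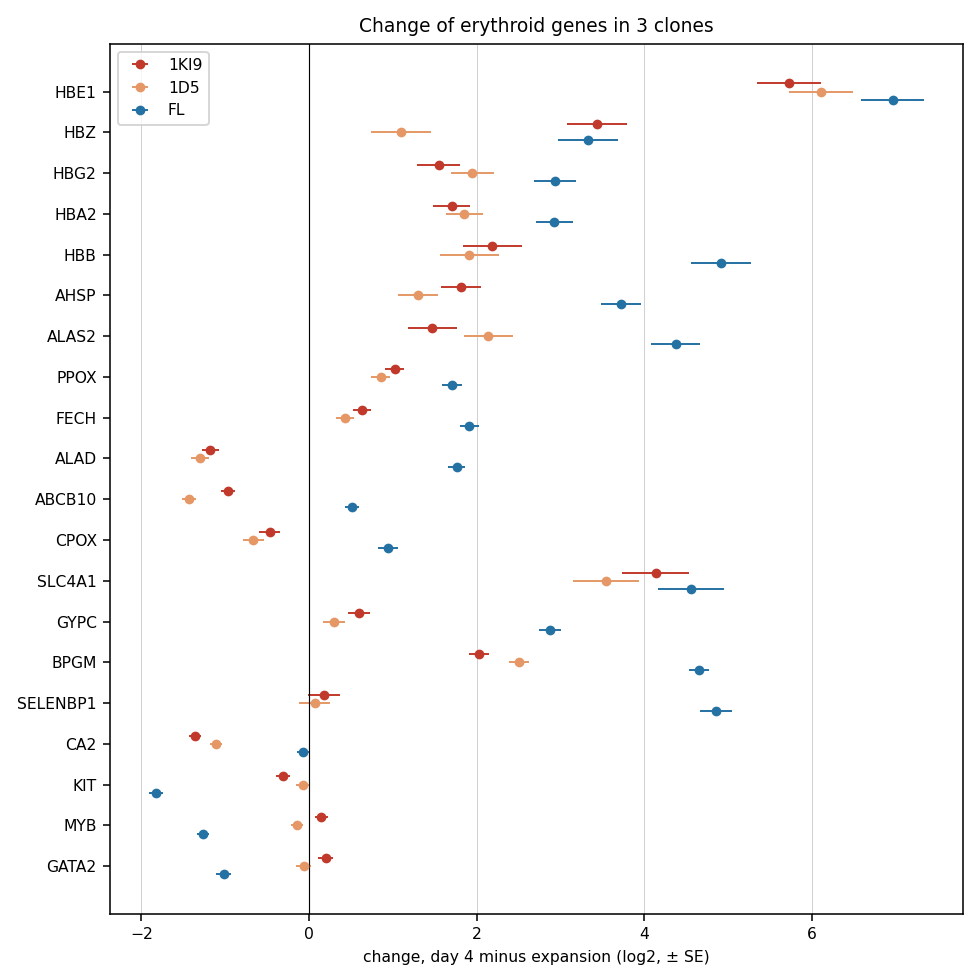
Change of 20 erythroid genes, day 4 minus expansion (log2 ± SE), for 1KI9, 1D5 and FL. HBE1 and SLC4A1 lie far right of 0 in all 3 clones, whereas ALAD, ABCB10 and CPOX lie left of 0 in 1KI9 and 1D5 and right of 0 in FL.

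Of 19 erythroid transcription factors 14 rose and 4 fell (median 0.52). NFE2, which acts at the globin clusters, was at 238, 246 and 228 at day 4, against 79.8, 72.8 and 69.1 in expansion (1.67 ± 0.11). ZFPM1, the FOG1 partner of GATA1, rose by 1.79, HEMGN, a nuclear protein of blood cell precursors, by 2.19, KLF1 by 0.80 and LMO2 by 0.66. BCL11A, which represses the gamma chains in adult cells, fell by 2.14 from a low level, with 0.571 ± 0.216 at day 4 against 5.90 ± 0.593 in expansion (SD, n = 3 each). Of 12 genes linked to the fetal to adult globin switch 2 rose and 8 fell. LIN28B, an RNA-binding protein of fetal blood cells, was at 5.41, 5.25 and 5.98 at day 4, against 20.9, 22.0 and 21.6 in expansion (-1.78), the mRNA-binding IGF2BP1 fell by 1.33 and the maintenance methyltransferase DNMT1 by 1.30.

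MYB and GATA2, transcription factors of the progenitor stage, did not pass. MYB was at 112, 109 and 116 at day 4, against 97.8, 103 and 103 in expansion (0.15). GATA2 was at 106, 104 and 97.9 at day 4, against 81.9, 94.5 and 92.1 in expansion (0.20), and it passed at 0.24 without day-4 replicate 3 or expansion replicate 2. In FL they changed by -1.27 and -1.02, and the differences of 1.41 and 1.22 passed. KIT, the receptor for stem cell factor, was at 264, 264 and 282 at day 4, against 322, 342 and 343 in expansion, a change of -0.31 against -1.83 in FL (difference 1.51 ± 0.12). Of the 6 progenitor genes tested 3 rose and 1 fell, and 10 of the 16 listed were not tested. Among erythropoietin and stem cell factor signalling genes 9 of 20 rose and 9 fell (median -0.06). The rises included CISH (1.70), SOCS2 (1.45), PIM1 (1.72) and the survival gene BCL2L1 (1.03), and the falls SPRY2 (-1.42) and SOCS1 (-1.23).

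The fall of cell division genes was broad. All 26 mitosis genes fell, with a median of -1.44, where 35.5% of all genes fell. AURKB, the kinase of the chromosomal passenger complex, was at 8.42, 8.77 and 9.58 at day 4, against 45.4, 50.8 and 47.2 in expansion (-2.30 ± 0.08, adjusted p = 8.93e-14). PLK1, which drives mitotic entry and spindle assembly, was at 14.9, 15.0 and 13.5 at day 4, against 66.2, 75.5 and 71.0 in expansion (-2.22 ± 0.08). In both, every day-4 library was under every expansion library. The checkpoint kinase BUB1 fell by 2.26, cyclin A2 (CCNA2) by 2.21, BIRC5 (survivin) by 2.03 and the proliferation marker MKI67 by 1.83. The change was more negative in 1KI9 than in FL for 16 of 26 and less negative for 1, a direction that turned to 1 and 5 with sums of 1000000. It was less negative than in 1D5 for 9, and for 0 to 6 under the other scalings. The shares of all genes tested that differed, in either direction, were 61.4% from FL and 26.8% from 1D5.

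The promoters of the 5 mitosis genes with the largest falls among those with a RefSeq window are shown because the whole list moved together. Each line holds the 250 bases before the start, 5′ to 3′ in the direction of the gene, with matches to the CHR element (TTTGAA or TTCGAA) and to CCAAT on either strand in capitals. The windows (GRCh38.p14) are AURKB at chr17:8210226-8210475, minus strand, BUB1 at chr2:110678064-110678313, minus strand, PLK1 at chr16:23678639-23678888, plus strand, CCNA2 at chr4:121823884-121824133, minus strand and CDC20 at chr1:43358731-43358980, plus strand.
AURKB: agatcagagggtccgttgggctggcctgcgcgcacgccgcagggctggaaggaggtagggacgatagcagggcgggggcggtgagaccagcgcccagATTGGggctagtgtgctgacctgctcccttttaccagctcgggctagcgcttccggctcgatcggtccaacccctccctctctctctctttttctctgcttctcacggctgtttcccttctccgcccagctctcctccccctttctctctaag
BUB1: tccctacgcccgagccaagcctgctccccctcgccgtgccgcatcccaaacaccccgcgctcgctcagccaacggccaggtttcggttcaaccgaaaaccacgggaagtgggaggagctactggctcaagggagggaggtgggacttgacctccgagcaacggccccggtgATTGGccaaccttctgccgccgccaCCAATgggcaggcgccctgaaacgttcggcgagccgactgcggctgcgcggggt
PLK1: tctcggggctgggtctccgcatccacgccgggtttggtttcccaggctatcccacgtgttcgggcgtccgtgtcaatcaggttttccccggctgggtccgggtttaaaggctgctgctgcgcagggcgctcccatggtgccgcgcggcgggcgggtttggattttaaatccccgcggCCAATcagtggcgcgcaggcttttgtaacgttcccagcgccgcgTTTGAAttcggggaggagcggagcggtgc
CCNA2: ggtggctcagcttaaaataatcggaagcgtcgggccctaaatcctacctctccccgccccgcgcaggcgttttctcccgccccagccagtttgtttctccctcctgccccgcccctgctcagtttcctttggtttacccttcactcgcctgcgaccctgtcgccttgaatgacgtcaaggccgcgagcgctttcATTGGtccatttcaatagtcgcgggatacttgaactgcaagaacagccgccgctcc
CDC20: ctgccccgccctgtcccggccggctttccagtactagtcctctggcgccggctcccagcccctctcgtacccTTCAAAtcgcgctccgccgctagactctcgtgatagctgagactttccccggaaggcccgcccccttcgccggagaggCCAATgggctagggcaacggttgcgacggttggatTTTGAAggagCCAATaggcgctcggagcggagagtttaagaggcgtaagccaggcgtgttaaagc
A CHR match stood in 13 of the 22 mitosis windows (59.1%), against 9.5% of the 8730 windows of tested genes and 14.6% of all RefSeq windows. A CCAAT match stood in 18 of 22 (81.8%), against 35.5% and 33.0%. Over the 491 windows of genes that fell 2-fold the CHR share was 17.7%, and over the 582 windows of genes that rose 2-fold it was 6.9%. These are matches of letters, not measured binding.

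DNA replication genes followed, with 26 of 29 falling and none rising (median -1.08). MCM4, a subunit of the replicative helicase, was at 75.5, 76.5 and 80.1 at day 4, against 232, 254 and 246 in expansion (-1.64 ± 0.07). The licensing factors CDC6 and ORC1 changed by -1.64 and -1.76, and the sliding clamp PCNA by -0.50 ± 0.06. In 23 of 29 the change was less negative than in 1D5, and in 5 to 15 under the other scalings. Of 22 genes of the G1 phase 6 rose and 13 fell. SKP2, the F-box protein that marks p27 for destruction, was at 7.14, 7.27 and 7.40 at day 4, against 54.4, 57.4 and 59.1 in expansion (-2.81 ± 0.07). CDKN1A, the p21 inhibitor of cyclin-dependent kinases, was at 1012, 1044 and 928 at day 4, against 302, 245 and 227 in expansion, a rise of 1.95 that was smaller than the 3.47 of 1D5 and the 3.07 of FL. CDKN1C, the p57 inhibitor, fell to 4.33, 4.71 and 3.72 at day 4, against 17.0, 22.4 and 15.6 in expansion (-1.87). It changed by -2.58 in 1D5 and rose by 1.02 in FL.

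**Figure D4:**
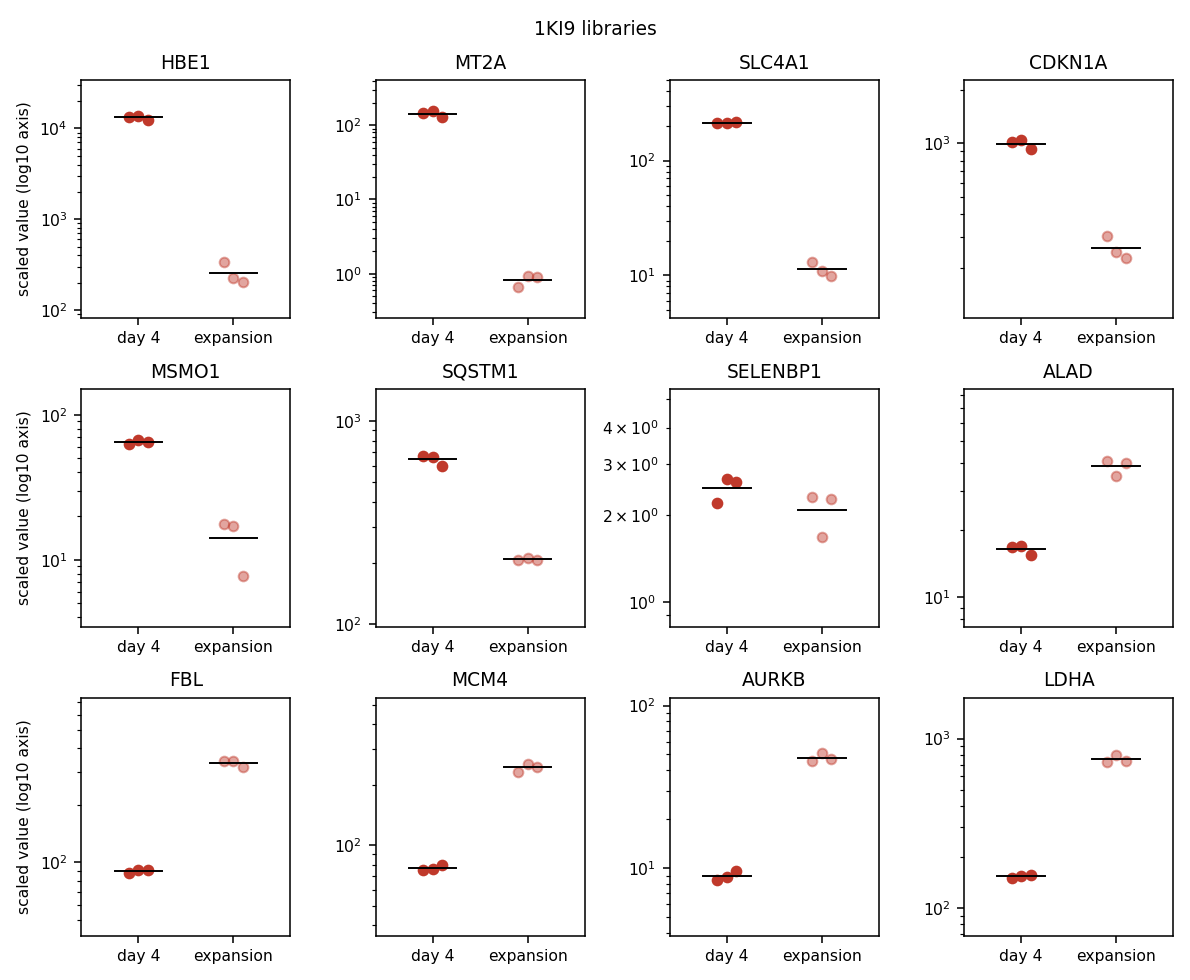
Scaled values (log10 axis) of 12 genes in the 3 day-4 and the 3 expansion libraries of 1KI9, day 4 left of expansion. Points are libraries and short lines are means. HBE1, MT2A, SLC4A1, CDKN1A, MSMO1 and SQSTM1 lie higher at day 4, while ALAD, FBL, MCM4, AURKB and LDHA lie lower, and the SELENBP1 groups overlap.

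Nearly all genes for making ribosomes fell. Of 25 ribosome biogenesis genes 23 fell and none rose (median -0.75). FBL, the fibrillarin that methylates ribosomal RNA, was at 88.1, 91.3 and 90.8 at day 4, against 343, 344 and 320.5 in expansion (-1.89 ± 0.07). NPM1, a nucleolar chaperone, fell to 1735, 1839 and 1753 at day 4, against 4333, 4378 and 4151 in expansion. Among genes with a symbol that fell without overlap between the groups, it had the largest loss in scaled value. NCL fell by 0.91 and POLR1A, the large subunit of RNA polymerase I, by 1.18. For 21 of the 25 the change was less negative than in FL, with 1 the reverse, and for 19 less negative than in 1D5, or 8 to 14 under the other scalings. Over all genes tested 61.4% differed from FL and 26.8% from 1D5, in either direction. MYC, which drives this set of genes, was at 106, 106 and 96.4 at day 4, against 166, 174 and 174 in expansion (-0.74), and its antagonist MXD4 rose by 1.04.

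Cytosolic ribosomal protein genes fell in 45 of 79 cases and rose in 1 (median -0.22), and their share of the library total was 15.1 ± 0.23% at day 4 and 19.6 ± 0.64% in expansion (SD, n = 3 each, exact permutation p = 0.1). The unscaled values gave 76 lower and 0 higher (median -0.52), sums of 1000000 gave 70 lower and ranks within libraries 32 lower and 13 higher (median -0.07). In FL the median of the same genes was 0.01. Splicing factors fell in 24 of 27 cases and rose in 2, with HNRNPA2B1 (-1.48), HNRNPA3 (-1.54) and SRSF1 (-1.37). SRSF5 was an exception that rose (0.50). Translation initiation factors fell in 24 of 31 cases and rose in 3, aminoacyl-tRNA synthetases fell in 13 of 20 and rose in 2, and proteasome subunits fell in 27 of 34 and rose in 1. Heat shock and chaperone genes fell in 13 of 18 cases and rose in 3, with the mitochondrial pair HSPD1 (-1.28) and HSPE1 (-1.24). Values in parentheses here and below are changes in log2.

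Most genes of biosynthetic metabolism fell. Of 24 nucleotide synthesis genes 21 fell and none rose (median -0.94). RRM2, the small subunit of ribonucleotide reductase, was at 30.6, 28.6 and 29.8 at day 4, against 113, 124 and 117 in expansion (-1.96 ± 0.09), and PRPS2, which makes the ribose donor, fell by 2.15. The serine, glycine and folate list had 13 of 18 members lower and 3 higher, with the glycine cleavage enzymes GLDC (-1.82) and GCSH (-1.46), the folate carrier SLC19A1 (-1.73) and the mitochondrial MTHFD2 (-1.18). PSAT1, the aminotransferase of serine synthesis, stayed near 0 in every 1KI9 library, while it averaged 2.08 ± 0.226 at day 4 and 20.2 ± 2.95 in expansion in 1D5, and 2.02 ± 0.119 and 22.3 ± 6.48 in FL. Amino acid transport genes fell in 11 of 17 cases and rose in 3, with the glutamine carriers SLC38A5 (-1.65) and SLC38A1 (-1.45).

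In glycolysis and the pentose phosphate pathway 18 of 28 genes fell and 9 rose (median -0.40). LDHA, the lactate dehydrogenase A chain, was at 149, 154 and 156 at day 4, against 726, 797 and 739 in expansion (-2.29 ± 0.10, adjusted p = 1.64e-12). Day-4 values lay wholly under those of expansion. LDHB fell by 1.31, hexokinase 2 (HK2) by 1.82, the monocarboxylate carrier SLC16A1 by 2.02 and the red cell pyruvate kinase PKLR by 1.30. The glucose carrier SLC2A1 was at 146, 142 and 122 at day 4, against 41.3, 42.8 and 40.7 in expansion (1.69 ± 0.15), and the pyruvate kinase PKM rose by 0.83. PKLR rose by 0.49 in FL, and the change in 1KI9 minus that in FL was -1.79.

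Most nuclear genes for mitochondrial proteins fell, whereas the direction of the genes of the mitochondrial genome depended on the scaling. The TCA list had 22 of 28 genes lower and 3 higher, with citrate synthase (CS) at 83.6, 87.5 and 88.6 at day 4, against 191, 203 and 206 in expansion (-1.20 ± 0.05). Nuclear genes of the respiratory chain and ATP synthase fell in 53 of 73 cases and rose in 6, and mitochondrial ribosomal proteins fell in 59 of 77 and rose in 2. Of the 13 mitochondrially encoded genes 6 rose and 1 fell (median 0.24, -0.05 in the unscaled values), whereas ranks within libraries gave 2 higher and 10 lower (median -0.36). The 1 that fell was MT-ND6, by 1.24 on the log2 scale, a subunit of complex I at 175, 168 and 173 at day 4, against 688, 301 and 326 in expansion, with expansion replicate 1 the highest. MT-CO1, a core subunit of cytochrome oxidase, was at 24431, 26456 and 23044 at day 4, against 17768, 14754 and 12425 in expansion (0.73 ± 0.13). The share of these 13 genes in the library total was 18.8 ± 0.48% at day 4 and 17.9 ± 2.00% in expansion (exact permutation p = 0.6), and of the total without globins 21.6 ± 0.60% and 18.7 ± 2.13%. In 8 of 13 the change was higher in 1KI9 than in FL (61.4% of all genes tested differed from FL in either direction), and in 9 to 13 under the other scalings.

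Sterol synthesis had more genes higher than lower, 15 against 4 of 24 (median 0.64, 0.21 in 1D5 and -0.20 in FL). The unscaled values gave 9 higher and 5 lower (median 0.35). MSMO1, a methylsterol oxidase, was at 62.8, 67.3 and 65.2 at day 4, against 17.7, 17.1 and 7.69 in expansion (2.21 ± 0.33). INSIG1, which retains the sterol sensor in the endoplasmic reticulum, rose by 1.41, and the squalene epoxidase SQLE by 1.11. The change was higher in 1KI9 than in FL for 13 of the 24 and lower for 1 (61.4% of all genes tested differed in either direction). Among the 13 were SQLE (difference 1.34) and DHCR7 (1.98). The windows of the pair with the largest rises are printed with CCAAT matches in capitals (GRCh38.p14, MSMO1 at chr4:165327419-165327668, plus strand, INSIG1 at chr7:155297628-155297877, plus strand).
MSMO1: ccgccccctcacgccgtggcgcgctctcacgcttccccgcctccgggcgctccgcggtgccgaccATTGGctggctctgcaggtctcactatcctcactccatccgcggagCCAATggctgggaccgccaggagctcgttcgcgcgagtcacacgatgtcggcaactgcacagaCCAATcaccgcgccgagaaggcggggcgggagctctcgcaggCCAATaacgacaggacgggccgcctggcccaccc
INSIG1: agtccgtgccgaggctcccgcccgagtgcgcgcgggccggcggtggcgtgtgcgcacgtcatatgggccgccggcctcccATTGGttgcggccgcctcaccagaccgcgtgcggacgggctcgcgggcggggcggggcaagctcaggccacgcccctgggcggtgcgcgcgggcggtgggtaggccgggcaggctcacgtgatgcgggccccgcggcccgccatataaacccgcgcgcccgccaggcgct
A CCAAT match stood in 15 of 18 sterol gene windows (83.3%), against 35.5% over tested genes. APOE, which carries lipid out of cells, was at 2053, 1897 and 1580 at day 4, against 659.6, 464 and 521 in expansion (1.75 ± 0.16), and 4 of 6 efflux genes rose. Fatty acid synthesis had 6 of 12 genes higher and 3 lower, and fatty acid oxidation 9 of 18 higher and 5 lower, counts that turned to 2 and 5, and 6 and 9, in the unscaled values. ACADVL, which handles very long chains, was at 941, 929 and 889 at day 4, against 465, 291 and 384 in expansion (1.30).

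Most autophagy genes rose. Of 24 autophagy and mitophagy genes 16 rose and 3 fell (median 0.48). SQSTM1, the p62 cargo receptor, was at 674, 664 and 599 at day 4, against 207, 211 and 208 in expansion (1.62 ± 0.09), and the kinases PINK1 and ULK1 rose by 1.85 and 1.47. BNIP3L, the receptor that removes mitochondria from reticulocytes, was at 208, 213 and 214 at day 4, against 255, 226 and 244 in expansion, a change of -0.19, against 1.39 in FL. Lysosomal genes rose in 19 of 35 cases and fell in 7, or 16 and 14 in the unscaled values. The cathepsins CTSD (1.96) and CTSB (1.70) rose. The protective protein CTSA was at 742, 765 and 712 at day 4, against 207, 160.1 and 166 in expansion (2.06 ± 0.08). The change was lower in 1KI9 than in FL for 18 of 24 autophagy genes and lower than in 1D5 for 11. Over all genes tested 61.4% differed from FL and 26.8% from 1D5, in either direction. Among the 35 lysosomal genes it was lower than in FL for 19 and higher for 5, which turned to 8 and 15 with sums of 1000000, and lower than in 1D5 for 15.

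The targets of p53 had a median near that of all genes. Of 20 tested 7 rose and 4 fell, with a median of 0.03 (-0.23 unscaled, with 3 higher and 10 lower), against 0.77 in 1D5 and 1.42 in FL. BTG2, an antiproliferative target, was at 81.2, 81.4 and 78.8 at day 4, against 39.0, 28.8 and 28.9 in expansion (1.31 ± 0.16), and BBC3 (PUMA) rose by 0.84. MDM2 (0.11), BAX (-0.01) and FDXR (-0.02) did not pass, and the cyclin CCNG1 fell by 0.81. The change was lower in 1KI9 than in FL for 18 of 20 and lower than in 1D5 for 15 of 20. Over all genes tested the shares that differed, in either direction, were 61.4% and 26.8%. Apoptosis genes split into 9 higher and 5 lower of 16 (6 and 7 unscaled), with the BH3 protein PMAIP1 at 1.66 and caspase 9 (CASP9) at 1.80.

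Chromatin genes divided by kind. Of 16 histone genes 12 rose and 3 fell (median 0.55, against 1.52 in 1D5 and 1.55 in FL). The linker histone genes HIST1H1C and H1FX rose by 1.96 and 1.68, and the variant H2AFZ of dividing cells was at 138, 142 and 126 at day 4, against 427, 475 and 433 in expansion (-1.71 ± 0.08). Histone genes are close copies, so single members are uncertain. In the nuclear envelope list 6 of 14 rose and 7 fell, with lamin B1 (LMNB1) at -1.77, the lamin B receptor (LBR) at -1.42 and lamin A (LMNA) at 0.80. UHRF1, which guides maintenance methylation of DNA, was at 3.48, 3.18 and 3.27 at day 4, against 22.3, 26.6 and 24.3 in expansion (-2.56).

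The largest rise among the genes named here was in a metal response gene. MT2A, a metallothionein that binds zinc and copper (chr16:56608199-56609497), was at 147, 154 and 128 at day 4, against 0.668, 0.918 and 0.901 in expansion, a rise of 6.30 ± 0.16 (adjusted p = 2.49e-15). The zinc exporter SLC30A1 was at 15.3, 14.9 and 15.1 at day 4, against 2.67, 2.71 and 2.28 in expansion (2.18 ± 0.11), and the importers SLC39A14 and SLC39A10 fell, with changes of -1.54 and -1.15. Of 7 members tested 3 rose and 2 fell, and 6 of the 13 listed were not tested. The untested MT1X was at 8.25, 9.60 and 6.99 at day 4 and MT1E at 2.08, 2.28 and 1.94, and both were listed at 0 in every expansion library, so no fold is given. MT2A averaged 235 ± 20.1 at day 4 and 1.29 ± 0.429 in expansion in 1D5, and 184 ± 7.55 and 0.646 ± 0.466 in FL. Both windows are shown with matches to the metal response core (TGCACNC or TGCGCNC, either strand) in capitals (GRCh38.p14, MT2A at chr16:56608334-56608583, plus strand, SLC30A1 at chr1:211579162-211579411, minus strand).
MT2A: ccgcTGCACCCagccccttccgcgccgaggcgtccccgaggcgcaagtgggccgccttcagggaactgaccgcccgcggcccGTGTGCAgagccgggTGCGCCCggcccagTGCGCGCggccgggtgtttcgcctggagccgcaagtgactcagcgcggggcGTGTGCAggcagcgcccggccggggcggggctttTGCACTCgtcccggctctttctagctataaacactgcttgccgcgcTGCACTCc
SLC30A1: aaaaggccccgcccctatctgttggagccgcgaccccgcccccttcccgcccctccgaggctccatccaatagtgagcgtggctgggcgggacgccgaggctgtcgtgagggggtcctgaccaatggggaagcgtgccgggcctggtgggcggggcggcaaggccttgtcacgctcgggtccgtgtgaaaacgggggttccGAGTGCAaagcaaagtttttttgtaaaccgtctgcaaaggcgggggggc
The MT2A window held 7 matches, overlapping ones counted, and 3 of 8730 windows of tested genes held that many. At least 1 match stood in 33.6% of them.

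Dexamethasone is listed for expansion only, and the list of glucocorticoid targets had 7 of 16 genes higher and 8 lower (median -0.30). FKBP5, a chaperone of the receptor and a standard target, was at 176, 182 and 184 at day 4, against 383, 377 and 383 in expansion (-1.07 ± 0.08), KLF9 fell by 0.74 and DDIT4 by 0.71. TXNIP, an inhibitor of thioredoxin, rose by 1.52. TSC22D3, the GILZ protein, changed by 0.27, against 1.55 in 1D5 and 2.11 in FL. Its call in 1KI9 was lost without day-4 replicate 1 or 2 (0.25 each) and without expansion replicate 2 (0.24) or 3 (0.20), and its change was -0.02 in the unscaled values. The change was lower than in 1D5 for 11 of 16 (26.8% of all genes tested differed from 1D5 in either direction).

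Several markers of other blood lineages rose, where 37.6% of all genes tested rose and 35.5% fell. Among mast cell, basophil and eosinophil genes 6 of 7 tested rose and 1 fell. TPSB2, a tryptase whose close copy TPSAB1 makes its level uncertain, was at 275, 278 and 255 at day 4, against 68.3, 53.5 and 48.3 in expansion (2.24 ± 0.17), HDC, which makes histamine, rose by 2.83 and HPGDS by 1.82, while PRG2, the eosinophil major basic protein, was at 30.0, 32.4 and 28.9 at day 4, against 41.5, 40.1 and 69.7 in expansion (-0.66, and -0.41 without expansion replicate 3). Megakaryocyte genes rose in 6 of 7 tested, with GP1BB (1.50), TUBB1 (1.42) and ITGB3 (1.26), and 8 of 15 listed were not tested. PLEK rose from a mean of 0.362 in expansion to only 1.31 at day 4. ITGA2B, at 1.59, 1.90 and 1.80 at day 4, against 2.11, 2.36 and 2.10 in expansion, did not pass (-0.21). Monocyte and neutrophil genes had 3 of 8 tested higher and 2 lower, close to the 37.6% of all genes tested that rose. The granule gene AZU1 was at 2.35 and CD68 at 1.63. The 2 that fell were the myeloid transcription factor SPI1 (-1.28) and CEBPA (-1.91), and LYZ (-0.67) did not pass. Of the lymphoid genes 0 of 10, and of the stromal genes 2 of 8, were tested. The summed mast cell list came to 349 to 379 at day 4, against 116 to 139.6 in expansion, and most of the day-4 sum was TPSB2. The summed megakaryocyte list came to 116 to 129.8 at day 4, against 50.1 to 54.8 in expansion, and the monocyte and neutrophil list to 421 to 452 at day 4, against 183 to 228 in expansion, most of it CD68, a lysosomal protein. In these 3 lists 2 of 12 mast cell, 6 of 15 megakaryocyte and 9 of 20 monocyte and neutrophil genes had no entry, so their levels are not known. No member with an entry was at 0 in all 6 libraries, which says nothing about those without one. The part of such cells in the results above was not tested.

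Secreted proteins included some of the largest rises. CXCL8, the neutrophil chemokine, was at 229.7, 234 and 209 at day 4, against 10.8, 6.83 and 5.49 in expansion (4.74 ± 0.19). CSF1, the macrophage growth factor, was at 211, 219.5 and 206 at day 4, against 14.0, 10.8 and 10.9 in expansion (4.06 ± 0.09), and its change differed from that in 1D5 by -1.11. It exceeded that in FL by 2.62, which shrank to 0.16 (not passed) with a pseudocount of 0.1. TIMP1, an inhibitor of matrix proteases, was at 3805, 4021 and 3613 at day 4, against 958, 673 and 522 in expansion (2.45 ± 0.20), with expansion replicate 1 the highest of its group. GDF15, a stress cytokine, rose by 1.81, TGFB1 by 1.18 and VEGFA by 0.92, while AREG fell by 0.91, so 6 of 7 tested rose. Of 16 interferon-response genes 11 rose and 3 fell, and of 9 HLA class I and peptide-loading genes 7 rose.

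Outside these lists, the largest rises with a level of at least 10 belonged to AQP2, the water channel known from the kidney collecting duct (5.35), the elastase gene CELA2B (5.01), the growth factor CLEC11A (4.70), the aldo-keto reductase AKR1C1 (4.67), KCNN4, the calcium-activated potassium channel of red cells (4.49), integrin beta 4 (ITGB4, 4.29), the collagen COL27A1 (4.25) and the phosphatase PHOSPHO1 (4.08). AQP2 was at 55.2, 55.6 and 51.8 at day 4, against 0.592, 0.156 and 0.356 in expansion. AKR1C1, which reduces steroids and has close relatives in its family, was at 722, 754 and 690.0 at day 4, against 40.0, 24.6 and 20.9 in expansion. In both, no expansion library came near a day-4 library.

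The largest falls were those of GAL, which encodes the neuropeptide galanin (-3.72), the lipoprotein lipase LPL (-3.17), HIF3A (-2.98), the matrix protease ADAMTS9 (-2.93), PM20D2 (-2.85), the neurofilament NEFH (-2.66), the orphan nuclear receptor ESRRG (-2.57), the gene model AL034430.2 (-2.49), LRRC4 (-2.40) and PROCR, the endothelial protein C receptor (-2.39). GAL was at 2.90, 2.51 and 2.39 at day 4, against 42.3, 55.3 and 42.8 in expansion, with all day-4 libraries under all expansion libraries. Among the genes with the largest gain in scaled value outside globins and ferritins, MT-ND3, a subunit of respiratory complex I, rose by 0.57, and changed by -0.21 when values were ranked within libraries. Among genes that fell without overlap between the groups, the greatest losses in scaled value after NPM1 included those of TMSB10 (-1.25), ACTB (-1.06), GAPDH (-0.57), RPS20 (-0.65), GSTM3 (-2.36), RPLP1 (-0.80), RPS3 (-0.48) and PPIA (-0.86). Several of these have near-identical copies.

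A few genes were listed at or near 0 in 1 condition. FMOD, the matrix proteoglycan fibromodulin, was at 14.7, 15.6 and 14.7 at day 4, against 0.0846, 0.0410 and 0.0158 in expansion. CELA2A and TINAGL1 were listed at 0 in every expansion library of the series, and ERCC1, ERCC2, ERCC3 and ERCC5, DNA repair genes without a symbol in the table, at 0 in every day-4 library, so no fold is given for them. The 4 ERCC genes are among 312 such entries, and that listing is not read as loss of expression.

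The remaining lists were mixed. Iron-sulfur cluster assembly had 2 of 16 genes higher and 6 lower, and antioxidant genes 5 of 17 higher and 9 lower. PRDX2, the abundant peroxiredoxin of red cells, was at 178, 185 and 165 at day 4, against 365, 389.5 and 411 in expansion (-1.14 ± 0.15). Its change was -1.73 in 1D5 and 0.97 in FL. Glutathione transferases had 3 of 11 higher and 5 lower. Hypoxia genes had 5 of 8 higher and 1 lower, the integrated stress response 6 of 14 higher and 3 lower (4 and 7 unscaled), the MYC network 4 of 9 higher and 4 lower, ubiquitin-conjugating enzymes 5 of 27 higher and 15 lower, heme breakdown and export 4 of 6 higher and 1 lower, and actin genes 8 of 20 higher and 8 lower, with the capping protein CAPG at 2.72. The medians of these lists lay between -0.20 and 0.51.

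Set beside the other clones, the change in 1KI9 was smaller. The median absolute change over all genes was 0.39 in 1KI9, 0.53 in 1D5 and 0.63 in FL, and 1448, 2563 and 3371 genes changed 2-fold. Of the 795 genes that rose 2-fold in 1KI9, 731 did so in 1D5 (91.9% of the 1KI9 list and 53.4% of the 1368 in 1D5) and 595 in FL (74.8% and 31.9% of the 1866 in FL). Of the 653 that fell 2-fold, 599 did so in 1D5 (91.7% and 50.1%) and 502 in FL (76.9% and 33.4%). Across the 11014 genes the changes correlated at r = 0.927 with those of 1D5 and r = 0.764 with those of FL, as a description over genes that are not independent replicates.

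**Figure D5:**
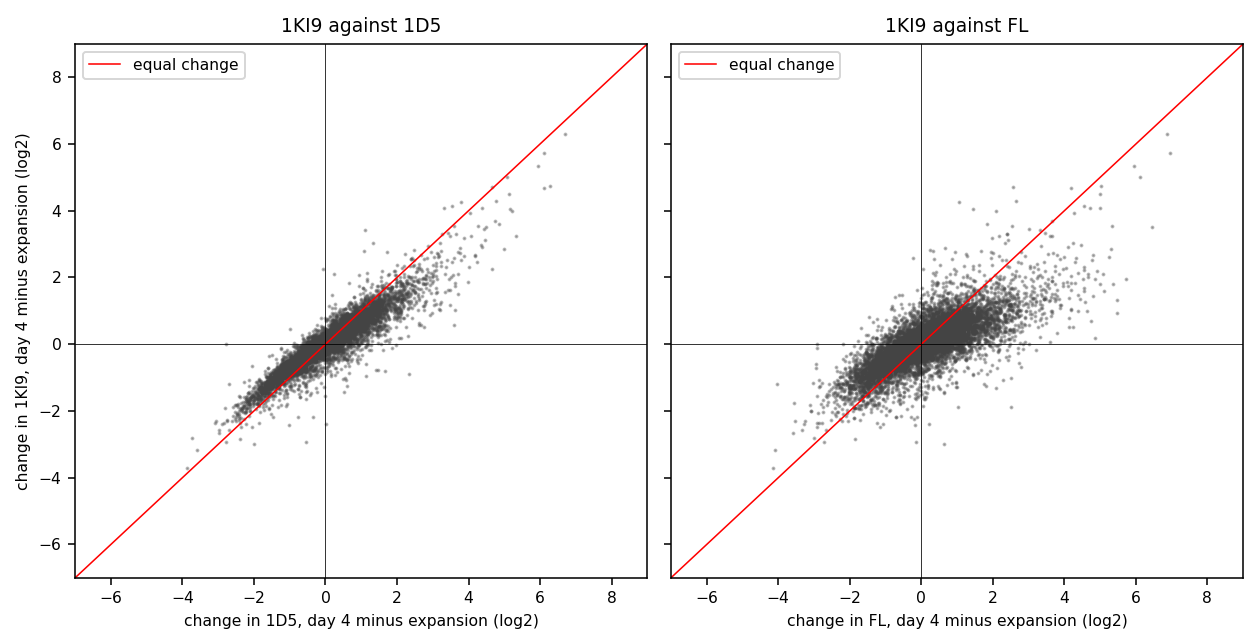
Change of each of 11014 genes, day 4 minus expansion (log2), in 1KI9 on the vertical axis against 1D5 (left) and FL (right) on the horizontal axis, with the line of equal change. The cloud is flatter than the line, and points are denser near it for 1D5 (r = 0.927) than for FL (r = 0.764).

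Against FL the change in 1KI9 differed for 6768 genes (61.4%), and by at least 2-fold in 415 upward (3.77%) and 1008 downward (9.15%). That split depended on the scaling, with 1609 upward and 493 downward for sums of 1000000 and 595 and 790 for unscaled values. Among the 1008, 969 had a higher level at day 4 in FL, and 560 were at least 2-fold lower in 1KI9 than in FL at day 4, whereas 232 were at least 2-fold higher in expansion. The differences with FL were largest for SELENBP1, the autophagy receptor OPTN, the troponin TNNI3, HLA-B, TMPRSS11F, HIST1H1C, the membrane carrier SLC22A4 and UBE2L6, all lower in 1KI9. OPTN was at 2.34, 2.48 and 2.74 at day 4, against 0.838, 0.853 and 0.877 in expansion, and averaged 73.1 ± 1.27 at day 4 and 0.682 ± 0.117 in expansion in FL. They were largest upward for COL27A1, PSAT1, COCH, the calcium channel subunit CACNB1, RHEX, CSF1, HDC and MS4A6A. With 1 FL clone, genotype and clone cannot be told apart.

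The change passed in opposite directions in 1KI9 and FL, with the difference itself passing, for 607 genes, 286 higher and 321 lower in 1KI9. In 8 of these both changes reached 2-fold, namely ALAD, AQP3, CDKN1C, CES3, METTL7A, MYL4, TNNI3 and TNNT1, and all 8 fell in 1KI9. In 1D5 they also fell, at -1.30 for ALAD, -1.06 for AQP3, -2.58 for CDKN1C, -0.73 for METTL7A, -1.56 for MYL4, -1.32 for TNNI3 and -0.54 for TNNT1. The exception in 1D5 was CES3, which rose by 0.58. AQP3, a water and glycerol channel of red cells, was at 6.49, 6.83 and 5.83 at day 4, against 16.0, 13.4 and 12.3 in expansion in 1KI9 (-1.01), and averaged 96.9 ± 4.76 at day 4 and 16.5 ± 4.47 in expansion in FL. Between 1KI9 and 1D5 there were 97 genes of opposite direction and 0 with 2-fold changes in both.

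Against the other GATA1s clone the change differed for 2950 genes (26.8%), by at least 2-fold in 16 upward (0.145%) and 238 downward (2.16%). With a pseudocount of 0.1 these counts were 46 and 451. Of the 238, 226 had a higher level at day 4 in 1D5. At day 4, 30 of the 238 were at least 2-fold lower in 1KI9 than in 1D5 and 5 at least 2-fold higher, while in expansion 124 were at least 2-fold higher in 1KI9 and 0 lower. RRAD, a small GTPase, was at 16.2, 15.7 and 15.1 at day 4, against 12.9, 9.70 and 8.66 in expansion in 1KI9, and averaged 50.2 ± 4.09 at day 4 and 3.46 ± 1.73 in expansion in 1D5. PTGS1, a cyclooxygenase, was at 54.8, 54.8 and 57.1 at day 4, against 34.5, 24.6 and 16.7 in expansion in 1KI9, with expansion replicate 1 the highest and replicate 3 the lowest, and averaged 58.3 ± 0.721 at day 4 and 4.38 ± 1.23 in expansion in 1D5. The other largest differences downward were those of BEX1, S100A16, TPSB2, PROCR, ADAMTS9 and TRIM63, and those upward included PSAT1, HBZ, MS4A6A, PRG2, COCH and FGFR3.

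PROCR was at 7.39, 8.01 and 7.04 at day 4, against 55.9, 42.2 and 34.7 in expansion in 1KI9, and averaged 7.72 ± 0.655 at day 4 and 8.11 ± 3.71 in expansion in 1D5. Both comparisons of 1KI9 use the same 1KI9 libraries, and expansion replicate 1 bears on them. Without that library 2301 genes differed from 1D5 in place of 2950.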

How the data were processed

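Poly(A) RNA of 18 libraries was compared in 6 groups of 3, taken from the clone and condition labels. The deposited table gives TPM values per gene and library, and the authors' further scaling leaves the day-4 columns as a TPM-like signal whose sums differ, so that the FL day-4 sums exceed 1000000. Per the submitters' processing notes, Trim Galore 0.60, STAR 2.7 and RSEM 1.31 were used with hg38 (GRCh38.p12). The depth per library and the strand setting are not given in the sources used here, so no counting interval is given, and antisense or overlapping genes may share reads. Near-identical copies (globin, glutathione transferase, metallothionein, histone, tryptase, elastase and glycophorin genes, and genes with pseudogene copies) are uncertain, and 50 entries share a symbol.

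From the 13358 listed genes, of which 13328 matched GENCODE 29, median-of-ratios factors were computed over 11554 genes above 0 in all libraries. The factors were 0.973 to 1.01 in day 4 and 1.18 to 1.27 in expansion of 1KI9, whose deposited sums were 814583 to 857123 and 943734 to 948554. Of 11117 genes at 1 or more in at least 3 libraries, 103 listed at 0 throughout one condition in all clones were left out under every setting, and the other 11014 were fitted on log2(value + 1) with limma 3.58.1 in R 4.3.3 (trend, 6 group means, 12 residual degrees of freedom), with Benjamini-Hochberg adjustment over all genes and a threshold of 0.05. The fit was tested on simulated data, and no error rate from that test is given here. Figures and other values were computed with Python 3.11.15 and pandas 2.3.3.

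Named genes were the 12 largest changes per direction with a mean of at least 10, the 10 largest shifts of the total per direction, up to 4 members of each of 59 lists, the 8 largest differences per direction from each other clone, GATA1, and genes listed at 0 or under 0.1 in one condition. Some genes that this rule picks are not reported here. Other members named in the text were chosen after their values were seen. Members and lists were chosen with earlier results of these data known. Alternatives were 4 other scalings, a pseudocount of 0.1, other filters on low values, the 6 libraries alone, a replicate block and leaving out each library. Omissions of FL expansion replicate 1 and of 1D5 expansion replicate 3, whose globin shares stand apart from their groups, were chosen after seeing the data.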

Additional observations from a re-analysis of the deposited data

Results flagged for a closer look

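The change from expansion to day 4 differed between 1KI9 and FL for 6768 genes, by the limma interaction term, which is why these values are listed. Each value is the change in 1KI9 minus the change in FL, in log2. It was higher in 1KI9 for COL27A1 (3.21), PSAT1 (2.92), CACNB1 (2.82), COCH (2.82), RHEX (2.82), CSF1 (2.62), HDC (2.60), MS4A6A (2.46), DHCR7 (1.98), KIT (1.51), MYB (1.41), SQLE (1.34) and GATA2 (1.22). It was lower in 1KI9 for SELENBP1 (-4.68), OPTN (-4.54), TNNI3 (-4.37), HLA-B (-4.14), TMPRSS11F (-4.06), HIST1H1C (-3.77), SLC22A4 (-3.73), UBE2L6 (-3.65) and PKLR (-1.79). PSAT1 was near 0 in all 6 libraries of 1KI9, so its difference is the fall in FL. With a pseudocount of 0.1 the difference of CSF1 shrank to 0.16 and did not pass.

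The change also differed between 1KI9 and 1D5 for 2950 genes, by the same kind of test. It was higher in 1KI9 for PSAT1 (2.79), HBZ (2.33), MS4A6A (1.74), PRG2 (1.39), COCH (1.15) and FGFR3 (0.96). It was lower in 1KI9 for BEX1 (-3.24), RRAD (-3.02), S100A16 (-2.58), TPSB2 (-2.42), PROCR (-2.40), ADAMTS9 (-2.38), PTGS1 (-2.32), TRIM63 (-2.25) and CSF1 (-1.11). With a pseudocount of 0.1 the difference of MS4A6A shrank to 0.28 and did not pass.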

How the results depend on the processing

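With the deposited values unscaled, 2445 genes were higher at day 4, 486 were higher and 1311 lower at 2-fold. For the 2-fold difference from FL, sums of 1000000 gave 1609 higher and 493 lower, sums without globin and mitochondrial genes gave 696 higher, and a pseudocount of 0.1 gave 628 higher. For the 2-fold difference from 1D5 the pseudocount of 0.1 gave 46 higher and 451 lower. The median change of all genes was -0.25 unscaled, -0.09 with sums of 1000000, 0.08 with sums without globin and mitochondrial genes and -0.02 with ranks. FTL (-0.25) and MT-ND3 (-0.21) reversed with ranks, and SPTB (-0.27) and TSC22D3 (-0.02) in the unscaled values. The cause was not tested.

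Leaving out each 1KI9 library gave 3884 to 3990 genes higher, 3639 to 3752 lower, 753 to 872 higher and 643 to 684 lower at 2-fold, 6379 to 6515 differing from FL and 2301 to 2749 differing from 1D5. Without FL expansion replicate 1, 6833 genes differed from FL, and without 1D5 expansion replicate 3, 2888 differed from 1D5. With the replicate block 4128 genes were higher and 3899 lower. A fit of the 6 libraries of 1KI9 alone gave 4104 higher and 4211 lower, and 794 and 721 at 2-fold. Deviations of same-numbered libraries of 1KI9 correlated at 0.026, 0.071 and 0.12, so the numbers were not taken to pair the samples, and expansion replicate 1 correlated best with day-4 replicate 2 (0.038). Of 2715 refits of the 181 named changes, 2687 kept direction and call, 11 lost the call, 13 gained it and 4 reversed. Depth is not known, so limits for low genes are not known either.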
